A study of Mus musculus with 6 samples.

Results

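Actin cross-linkers and adhesion scaffold proteins are described here through 9 genes, Flna, Flnc, Actn1, Actn4, Tln1, Vcl, Myh9, Zyx and Ahnak. They were chosen by gene name from the 54532 genes of the deposited expression table, and all 9 were found and all 9 passed the filter on low values. The samples are 3 libraries labelled Npm1 knockout, made with CRISPR/Cas9, and 3 labelled wild type. Each comes from MC38, a mouse colon cancer cell line, grown under the skin of wild-type C57BL/6 mice and depleted of CD45-positive leukocytes with microbeads before poly-A RNA was taken. Both groups therefore share a host with intact Npm1, whose non-leukocyte cells can remain in the suspension. The labels give no age or sex of the mice, and do not say whether the knockout is 1 clone or whether replicates are separate animals, so each p-value reflects the spread among these libraries alone, and that spread may be technical.

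Cells hold their shape and pull on their surroundings through bundles of actin filaments. Filamins and alpha-actinins tie filaments into networks and bundles, non-muscle myosin II slides them past each other, and talin and vinculin couple them to integrins, the receptors that grip the extracellular matrix. Zyxin joins adhesions that are under tension, and Ahnak is a giant scaffold found under the plasma membrane.

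Each library held 16917778 to 18662688 fragments. The 9 genes together took 0.386%, 0.461% and 0.706% of all fragments in Npm1 knockout replicates 1, 2 and 3, against 0.929%, 0.926% and 0.860% in wild-type replicates 1, 2 and 3. The lowest value behind any level of the 9 genes is 971 fragments (exact Poisson 95% interval 911 to 1034, counting error only). For these genes counting error is small beside the difference between the groups. Some markers of other cells, given below, rest on far fewer fragments. Npm1 itself had 191, 159 and 128 FPKM (fragment counts scaled by gene length and library size) in the knockout libraries, against 234, 169 and 195 FPKM in the wild-type libraries. These overlap, with a log2 difference of -0.33 (SE 0.20, limma adjusted p = 0.268). With a trend over transcript length and GC content removed, as described below for the 9 genes, Npm1 was lower in the knockout by the test (-0.76, SE 0.14, limma adjusted p = 0.0434).

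Markers of other cells were read beside these genes, since smooth muscle, muscle and platelets are rich in them. Summed over 8 pericyte and smooth muscle markers, the level was 31.9 to 38.5 FPKM in the knockout libraries and 51.4 to 67.3 FPKM in the wild-type libraries. Over all tested genes, 8.3% were called lower in the knockout and 5.91% higher. Of the 4 pericyte and smooth muscle markers that could be tested, 3 (Cspg4, Notch3 and Mcam) were lower in the knockout, and Acta2 did not pass. With the length and GC trend removed, these 3 did not pass either (limma adjusted p = 0.196 for Cspg4, 0.787 for Notch3 and 0.0800 for Mcam). Below the filter, Rgs5 averaged 0.431 FPKM in the knockout and 0.426 FPKM in wild type, and Des 0.564 and 0.326 FPKM. The defining smooth muscle genes Myh11 and Cnn1 were near 0 in both groups, Cnn1 at 0 in all 3 knockout libraries and at 0.0225 to 0.0636 FPKM in wild type. The 10 skeletal muscle markers summed to 1.16 to 1.75 FPKM in the knockout and 1.13 to 1.32 FPKM in wild type, and 4 platelet markers to 2.04 to 2.33 FPKM in the knockout and 2.13 to 2.55 FPKM in wild type. Leukocyte markers (8 genes) summed to 0.151 to 0.288 FPKM in the knockout and 0.220 to 0.465 FPKM in wild type. The cells are labelled colon cancer cells, yet 9 colon epithelial markers summed to only 1.59 to 2.37 FPKM in the knockout and 2.20 to 2.76 FPKM in wild type. The 8 fibroblast markers summed to 1493 to 1684 FPKM in the knockout and 1101 to 1616 FPKM in wild type, with Dcn, Dpt and Pi16 higher in the knockout. The rest did not pass: Col1a2 (log2 -0.50, limma adjusted p = 0.0929), Thy1 and Pdgfra had a lower mean in the knockout, and Col3a1 and Lum a higher one. Most of the sum was Col3a1, at 1213 ± 106 FPKM in the knockout and 1143 ± 244 FPKM in wild type. With the length and GC trend removed, Dpt and Pi16 still passed and Dcn did not (limma adjusted p = 0.0690). The 6 endothelial markers, all below the filter, summed to 0.861 to 1.57 FPKM in the knockout and 1.503 to 4.64 FPKM in wild type. Cdh5 among them had 0.208, 0.364 and 0.646 FPKM in the knockout libraries, against 0.764, 2.26 and 1.16 FPKM in wild type. Below the filter, Cdh5 and Vwf did not overlap between groups, nor did Adgre1 and Csf1r (leukocyte), Cdh1 (colon epithelial) and Cnn1. Each was lower in the knockout. Over all tested genes, groups did not overlap in either direction for 35.6%. Some of these markers rest on few fragments, such as Vwf at 11, 15 and 20 in the knockout libraries and 24, 48 and 21 in wild type. Among the endothelial markers, Pecam1, Kdr, Emcn and Tek overlapped. Tek had the higher mean in the knockout (0.0785 FPKM, against 0.0487 FPKM in wild type), from at most 12 fragments in any library. In bulk RNA, the levels do not show whether host cells or the MC38 cells themselves made the RNA of a marker. Fewer cells of a type and less RNA per cell cannot be told apart either. The part of these marker differences in the results was not tested.

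Of the 9 genes, 6 fell in the Npm1 knockout libraries and 0 rose: Flna, Flnc, Tln1, Vcl, Myh9 and Zyx, to between 37.4% and 60.1% of their wild-type mean. Actn1, Actn4 and Ahnak were also at a lower mean without passing the test. Over all 11287 genes tested, 8.3% were called lower and 5.91% higher (limma on log2(FPKM + 1), Benjamini-Hochberg adjusted p under 0.05). Of all calls 41.6% were higher in the knockout, a share that was 26.1% with values rescaled to TPM. The median log2 difference of the 9 genes was -0.88, beside 0.02 for all tested genes. Every log2 difference below is the knockout value less the wild-type one, in log2(FPKM + 1).

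The filamins form long, bent dimers that cross-link actin filaments at wide angles. Flna (filamin A, ENSMUSG00000031328, chromosome X, 74223461 to 74249820, minus strand, GRCm38), the widely expressed filamin, had 109, 139 and 196 FPKM in Npm1 knockout replicates 1 to 3, against 236, 326 and 293 FPKM in wild-type replicates 1 to 3. Every knockout library lay below every wild-type library, and knockout replicate 3 came nearest to them. Flna averaged 148 ± 44.5 FPKM in the knockout and 285 ± 46.0 FPKM in wild type (SD, n = 3 each). The log2 difference was -0.97 (SE 0.23, limma adjusted p = 0.0268).

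Flnc (filamin C, ENSMUSG00000068699, chromosome 6, 29433256 to 29461883, plus strand), known mainly as the filamin of striated muscle, fell furthest of the 9. It had 7.04, 7.96 and 11.9 FPKM in the knockout libraries, against 23.5, 24.0 and 24.5 FPKM in the wild-type libraries. The wild-type libraries lay almost on top of one another, and even the highest knockout library was far below them. Flnc averaged 8.97 ± 2.59 FPKM in the knockout and 24.0 ± 0.472 FPKM in wild type (SD, n = 3 each), and its log2 difference was -1.36 (SE 0.18, limma adjusted p = 0.0111).

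The alpha-actinins are antiparallel rods that bundle filaments side by side in stress fibres, and for both non-muscle forms the difference was smaller than for the filamins and did not pass the test. Actn1 (alpha-actinin 1, ENSMUSG00000015143, chromosome 12, 80167547 to 80260371, minus strand) had 53.5, 58.6 and 69.7 FPKM in the knockout libraries, against 79.1, 86.5 and 83.7 FPKM in wild type. The groups did not overlap, but means of 60.6 ± 8.29 FPKM in the knockout and 83.1 ± 3.73 FPKM in wild type (SD, n = 3 each), with a log2 difference of -0.46 (SE 0.15), missed the threshold (limma adjusted p = 0.0694). Actn4 (alpha-actinin 4, ENSMUSG00000054808, chromosome 7, 28893248 to 28962340, minus strand) had 80.8, 92.8 and 103 FPKM in the knockout libraries, against 109.8, 121 and 125 FPKM in wild type. Its knockout replicate 3 stood just under wild-type replicate 1, and the log2 difference was the smallest of the 9 at -0.36 (SE 0.16, limma adjusted p = 0.137). The muscle actinins Actn2 and Actn3 were below the filter, at no more than 0.164 FPKM in any library.

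Talin 1 binds integrin tails and switches integrins on. Tln1 (ENSMUSG00000028465, chromosome 4, 43531519 to 43562691, minus strand) had 38.6, 46.1 and 63.9 FPKM in the knockout libraries, against 75.3, 100.004 and 97.0 FPKM in wild type. The groups did not overlap, although knockout replicate 3 and wild-type replicate 1 stood close. Tln1 averaged 49.6 ± 13.0 FPKM in the knockout and 90.8 ± 13.5 FPKM in wild type (SD, n = 3 each), and its log2 difference was -0.88 (SE 0.20, limma adjusted p = 0.0254).

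Vinculin is recruited to stretched talin and adds further links to actin. Vcl (ENSMUSG00000021823, chromosome 14, 20929398 to 21033676, plus strand) had 6.49, 9.30 and 12.9 FPKM in the knockout libraries, against 16.8, 16.1 and 14.9 FPKM in wild type. The knockout libraries spread widely and the highest of them approached the lowest wild-type one, wild-type replicate 3. Vcl averaged 9.58 ± 3.24 FPKM in the knockout and 15.9 ± 0.960 FPKM in wild type (SD, n = 3 each), and the log2 difference was -0.72 (SE 0.21, limma adjusted p = 0.0463). This call was the closest to the threshold: expressed as TPM, Vcl had a limma adjusted p of 0.0791, and with quantile normalization one of 0.0517.

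Zyxin carries LIM domains and gathers actin assembly factors of the Ena/VASP family at adhesions. Zyx (ENSMUSG00000029860, chromosome 6, 42349630 to 42360213, plus strand) had 25.0, 22.7 and 30.3 FPKM in the knockout libraries, against 42.7, 44.7 and 49.4 FPKM in wild type. A clear gap separated the groups, from 30.3 FPKM in knockout replicate 3 to 42.7 FPKM in wild-type replicate 1. Zyx averaged 26.0 ± 3.89 FPKM in the knockout and 45.6 ± 3.46 FPKM in wild type (SD, n = 3 each), and its log2 difference was -0.79 (SE 0.15, limma adjusted p = 0.0171).

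Myh9 encodes the heavy chain of non-muscle myosin IIA, the motor that puts these filament networks under tension. It (ENSMUSG00000022443, chromosome 15, 77760587 to 77842175, minus strand) had 41.5, 51.7 and 70.2 FPKM in the knockout libraries, against 104, 107 and 107 FPKM in wild type. The wild-type libraries were nearly equal, while the knockout libraries spread widely below them. Myh9 averaged 54.5 ± 14.6 FPKM in the knockout and 105.9 ± 1.49 FPKM in wild type (SD, n = 3 each), with a log2 difference of -0.98 (SE 0.19, limma adjusted p = 0.0172).

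Ahnak was the one gene of the 9 whose groups overlapped. It (ENSMUSG00000069833, chromosome 19, 8989284 to 9076919, plus strand, coordinates as deposited) had 52.0, 50.9 and 109 FPKM in the knockout libraries, against 158, 109 and 109.8 FPKM in wild type. Knockout replicate 3 thus sat at the level of wild-type replicates 2 and 3, and wild-type replicate 1 stood above all others. The log2 difference was -0.89 (SE 0.29, limma adjusted p = 0.0628), as large as that of Tln1 but with a wider error. S100a10 and Anxa2, which form the membrane complex that Ahnak binds, had log2 differences of 0.30 (limma adjusted p = 0.373) and 0.20 (limma adjusted p = 0.518) and did not pass.

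**Figure D1:**
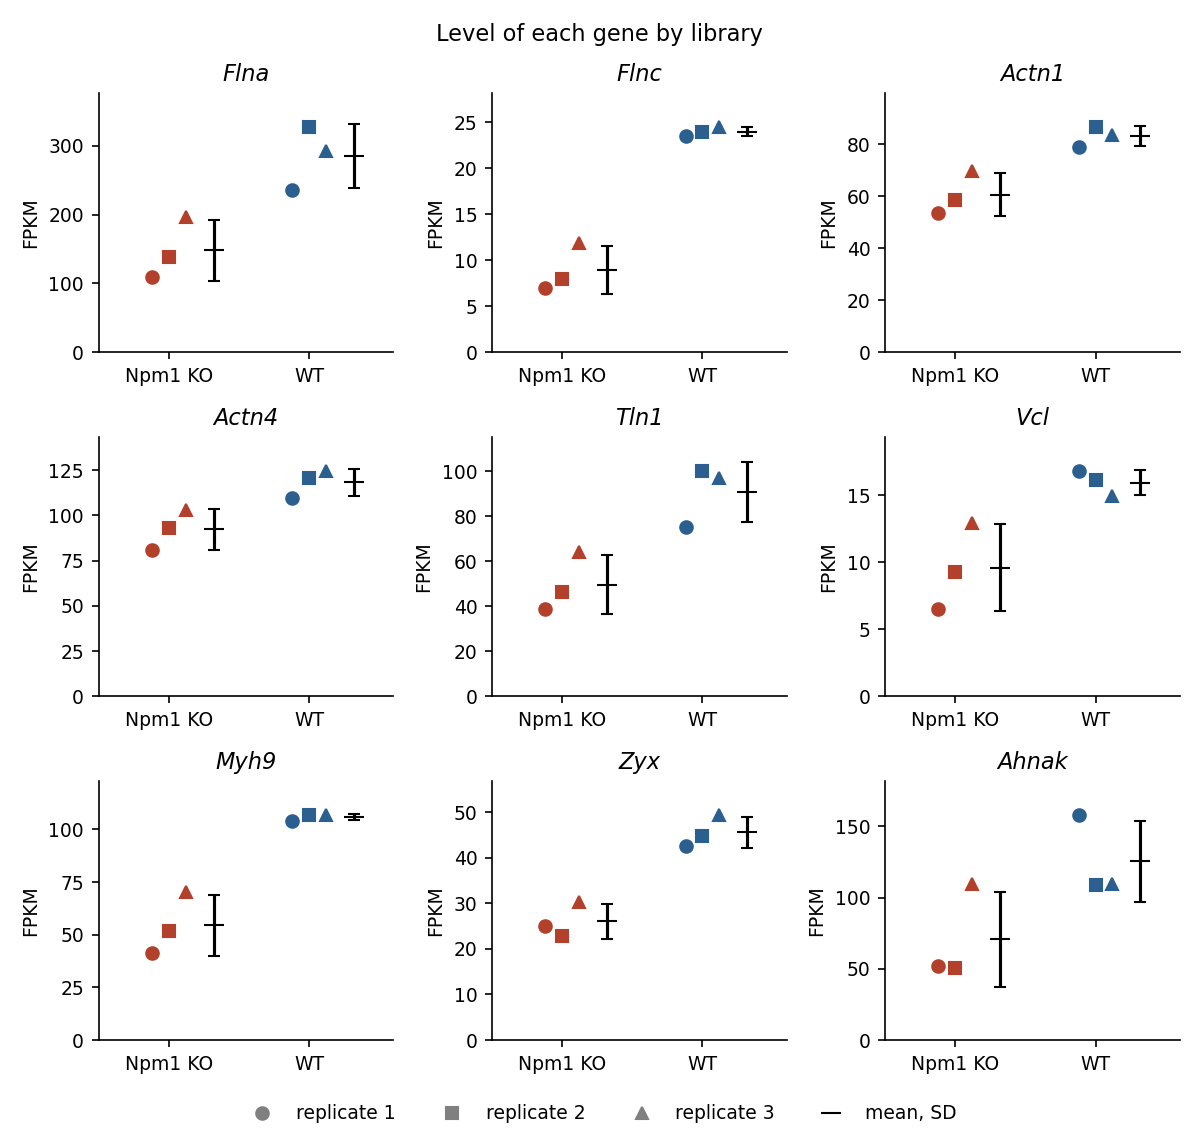
Level of each of the 9 genes in FPKM (vertical axes, each from 0), with the 3 Npm1 knockout libraries left of the 3 wild-type libraries in each panel; symbols mark the replicate number, and the bars beside them the mean and SD. Knockout replicate 3 is the highest knockout library in all 9 panels, and Ahnak is the panel where the groups overlap.

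In 8 of the 9 genes every knockout library was below every wild-type library. Over all tested genes this was so for 19.6%, and groups did not overlap in either direction for 35.6%. Permuting the 6 values of a gene exactly (two-sided) gave p = 0.1 for each of these 8, the lowest value possible with 3 against 3 libraries, and p = 0.2 for Ahnak.

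Levels spanned a wide range, in an order that was not the same in both groups. Per length, Flna was highest in both groups, at 148 ± 44.5 FPKM in the knockout and 285 ± 46.0 FPKM in wild type, with its lowest library above the highest library of every other gene of the 9 in the same group, except Ahnak in the knockout. Below it stood Actn4 (92.3 ± 11.2), Ahnak (70.8 ± 33.5), Actn1 (60.6 ± 8.29), Myh9 (54.5 ± 14.6) and Tln1 (49.6 ± 13.0 FPKM) in the knockout, with overlapping ranges between neighbours. In wild type the same 5 ran Ahnak (125 ± 28.2), Actn4 (118 ± 7.61), Myh9 (105.9 ± 1.49), Tln1 (90.8 ± 13.5) and Actn1 (83.1 ± 3.73 FPKM), where the ranges overlapped between Ahnak and Actn4 and between Tln1 and Actn1. At the low end, Vcl (6.49 to 12.9 FPKM) and Flnc (7.04 to 11.9 FPKM) overlapped in the knockout, whereas in wild type Flnc (23.5 to 24.5 FPKM) lay wholly above Vcl (14.9 to 16.8 FPKM).

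Ratios within a library set related genes side by side, from the deposited values and without removal of the length and GC trend described below. The ratio of Flnc to Flna was 0.0646, 0.0574 and 0.0606 in the knockout libraries, against 0.0998, 0.0734 and 0.0836 in wild type, with no overlap (exact two-sided permutation p = 0.1, the smallest possible). The ratio of Zyx to Actn1 was 0.430 ± 0.0401 in the knockout and 0.549 ± 0.0379 in wild type (SD, n = 3 each, no overlap, exact permutation p = 0.1). The ratio of Actn1 to Actn4 was 0.656 ± 0.0227 in the knockout and 0.703 ± 0.0272 in wild type (SD, n = 3 each), with overlap (exact permutation p = 0.2). For Vcl to Tln1 the ratios were 0.191 ± 0.0195 in the knockout and 0.179 ± 0.0381 in wild type, also overlapping (exact permutation p = 0.8, n = 3 each). These 4 ratios were chosen after the levels had been seen, and the smallest exact permutation p adjusted over the 4 is 0.2. With the trend removed, the log2 differences were -0.44 for Flnc and -0.29 for Flna, and -0.55 for Zyx and -0.24 for Actn1. The part of the trend in these ratios was not tested.

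**Figure D2:**
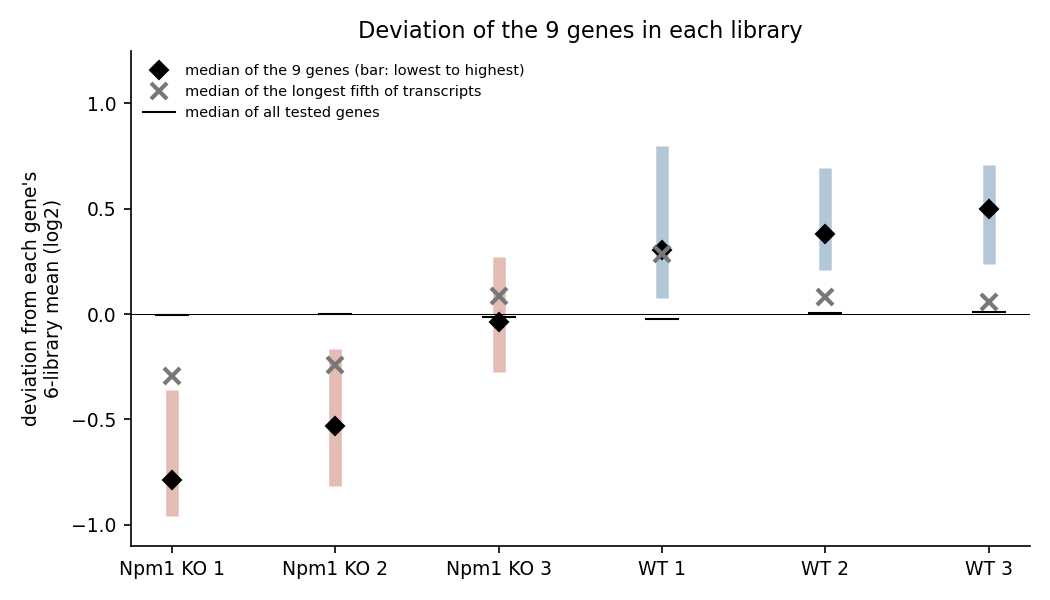
Deviation of the 9 genes from each gene's own mean over the 6 libraries (vertical axis, log2), by library along the horizontal axis; diamonds are the median of the 9 genes, bars run from the lowest to the highest of them, crosses are the median of 2003 genes with the longest transcripts and dashes that of all tested genes. The 9 genes lie lowest in knockout replicate 1, at a median of -0.79, and near 0 in knockout replicate 3.

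The 9 genes varied together from library to library. Their median deviation from the 6-library mean was -0.79, -0.53 and -0.037 on the log2 scale in knockout replicates 1, 2 and 3, and 0.31, 0.38 and 0.50 in wild-type replicates 1, 2 and 3. Knockout replicate 3 was the highest knockout library for all 9 genes, and knockout replicate 1 the lowest for 7, with Zyx and Ahnak the 2 exceptions. In the wild-type group, replicate 1 was the lowest library for 7 of the 9, but the highest for Vcl and Ahnak. The genes with the longest transcripts, 2003 in all, had medians of -0.30, -0.24 and 0.086 in the knockout libraries, against 0.28, 0.081 and 0.057 in the wild-type libraries, so knockout replicate 3 was also the highest knockout library there.

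The number of calls rested on single libraries, for the 9 genes as for the 11287 tested genes, of which 1604 were called with all libraries in. Without wild-type replicate 3, 0 of the 9 passed and 7 of all genes did. An unadjusted limma p under 0.05 was then found for 8 of the 9 and for 2910 of the 11287 genes. All 9 differences stayed negative, which was fixed in advance for the 8 genes whose groups did not overlap. Flnc alone passed without knockout replicate 1, where 88 of all genes were called, and without knockout replicate 2, where 209 were. Leaving out wild-type replicate 2 kept Flnc, Myh9 and Zyx past the threshold, with 890 calls over all genes. Without knockout replicate 3, 8 of the 9 passed, Actn1 (-0.56) and Ahnak (-1.25) among them, with 2805 calls over all genes. Without wild-type replicate 1, 5 of the 9 passed, with 1369 calls over all genes. With no filter on low values, 0 of the 9 and 0 of 24310 genes passed by limma, while 4543 of them, the 9 included, had an unadjusted p under 0.05. With libraries weighted by their scatter all 9 passed, as did 5454 of all 11287 genes.

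These genes have long transcripts, and in this experiment the difference between the groups followed length and GC content across the transcriptome. The longest annotated transcript is 18100 bases for Ahnak, 9038 for Flnc, 8456 for Flna, 8393 for Tln1, 7433 for Myh9 and 5267 for Vcl, and all 6 fall in the longest of 5 equal bins of protein-coding genes. Actn4 (3877 bases), Actn1 (3734 bases) and Zyx (3188 bases) lie in shorter bins. Flnc, Tln1, Myh9 and Zyx, at 56.6% to 58.4% GC, are in the bin of highest GC content. The median log2 difference was 0.28 in the bin of shortest transcripts and -0.28 in that of the longest. Of the 2003 genes with the longest transcripts, 20.2% were called lower and 0.899% higher (21.1% in either direction), while 6 members of the 9 lie among them and 5 of those 6 were called lower. Of 223 genes in both the longest and the most GC-rich bin, 65.0% were called lower, 0.0% higher, and the median was -0.70. Flnc (-1.36), Myh9 (-0.98) and Tln1 (-0.88) are among these 223. Of the 2003 genes with the longest transcripts, the share with a log2 difference below that of the gene was 0.699% for Flnc, 4.39% for Myh9, 4.69% for Flna, 6.39% for Ahnak, 6.79% for Tln1 and 12.8% for Vcl.

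**Figure D3:**
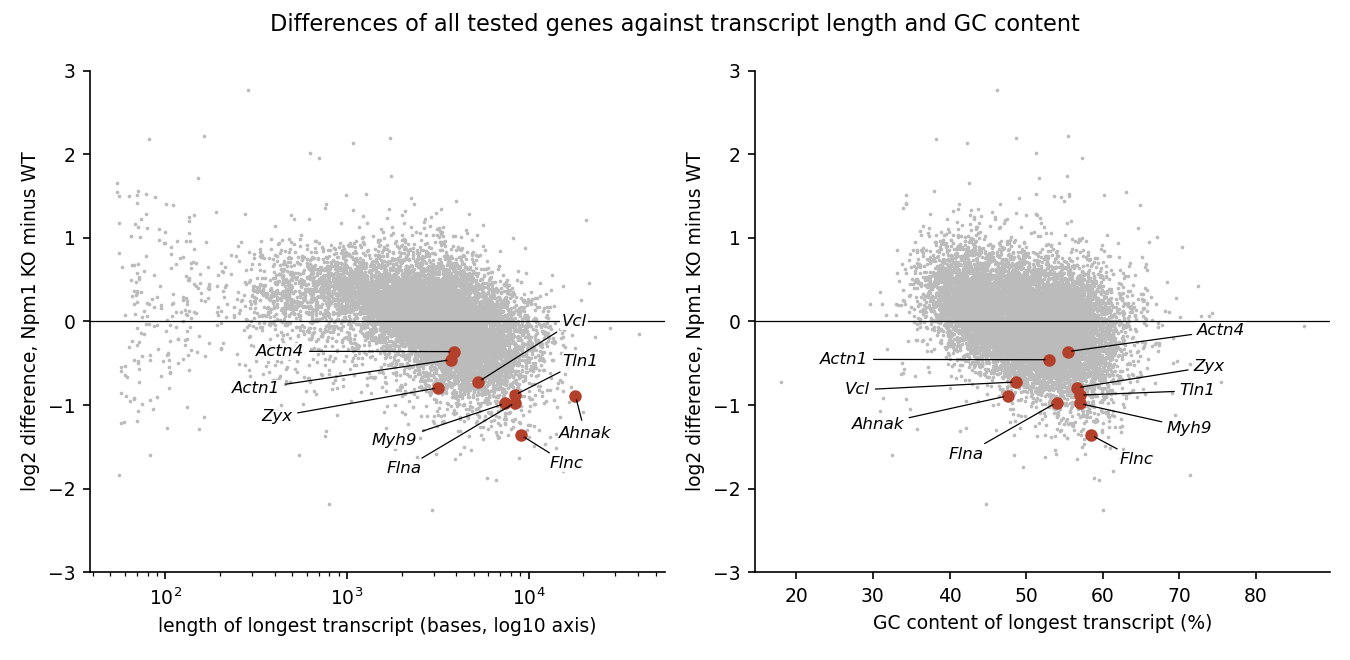
Log2 difference, Npm1 knockout minus wild type, of every tested gene (grey) and the 9 genes (red, named) against the length of the longest transcript in bases on a log10 axis (left) and its GC content in percent (right). Long and GC-rich transcripts lie lower as a whole; among the 9, Zyx is the shortest at 3188 bases and Ahnak the longest at 18100 bases.

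When a smooth trend with transcript length and GC content was subtracted in each library, 2 of the 9 genes still fell, Flnc at -0.44 (SE 0.09, limma adjusted p = 0.0474) and Zyx at -0.55 (SE 0.12, limma adjusted p = 0.0497). With the trend removed, 1.65% of 11269 genes were called lower and 1.23% higher (2.88% in either direction), and among the 2003 longest 1.4% lower and 0.999% higher (2.4%). Vcl was at -0.51 without passing (limma adjusted p = 0.0956). Flna (-0.29), Ahnak (-0.27), Myh9 (-0.25), Actn1 (-0.24), Tln1 (-0.087) and Actn4 (-0.060) did not pass, with limma adjusted p from 0.168 for Myh9 to 0.721 for Actn4. The median of the 9 was -0.27, beside 0.01 for all genes. The share of all tested genes lying below the gene was then 4.24% for Zyx, 5.08% for Vcl, 7.12% for Flnc, 15.3% for Flna, 16.4% for Ahnak, 17.9% for Myh9, 19.2% for Actn1, 35.8% for Tln1 and 39.3% for Actn4. Leaving out any 1 library on top of this ended the call of Flnc (limma adjusted p 0.0518 to 0.165), and that of Zyx passed only without knockout replicate 3 (limma adjusted p = 0.0368). Only 11 tested genes, Ahnak included, have a transcript at least as long as that of Ahnak, so the trend is poorly fixed there, and the longest annotated transcript need not be the expressed one. Whether the trend is technical or a real change in long transcripts was not tested.

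**Figure D4:**
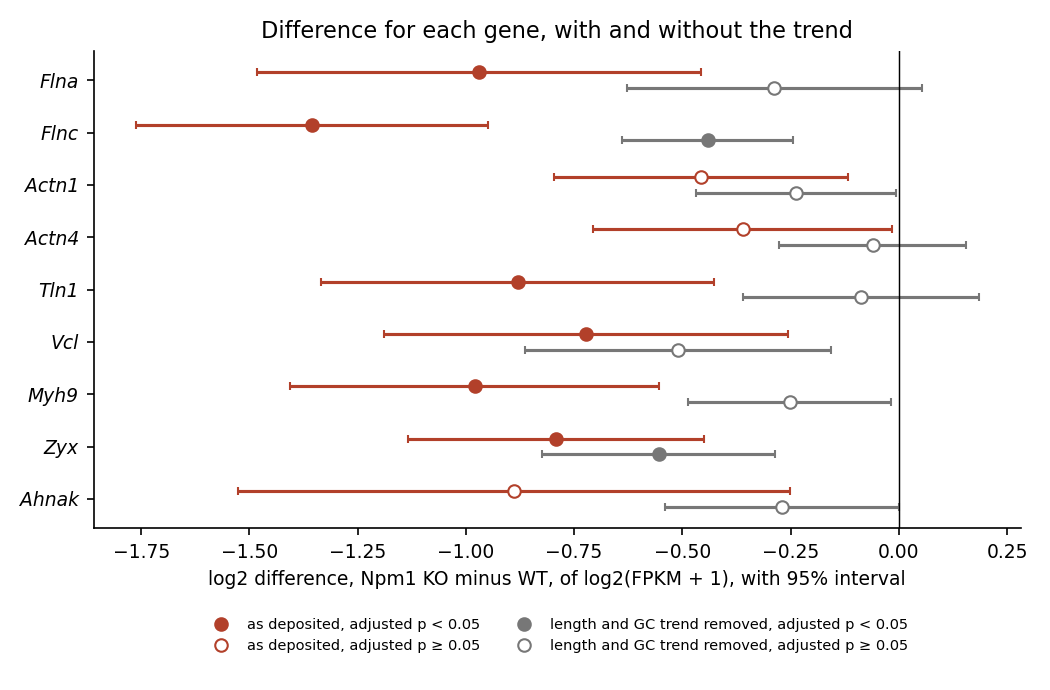
Log2 difference, Npm1 knockout minus wild type, of each of the 9 genes with its 95% interval, from the deposited values (red) and with the length and GC trend removed (grey); filled points have an adjusted p under 0.05. Filled red points number 6 and filled grey points 2, Flnc and Zyx, and all points lie left of 0.

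The promoters of the 9 genes were examined for short motifs. The 9 varied together between libraries, but many other genes did so too: 612 of 10025 protein-coding genes reached a Pearson r of 0.95 with their mean profile. RefSeq windows on GRCm38.p6, from 250 bases before to 50 after an annotated start, were found for all 9 genes (10 windows, 57.0% to 76.3% GC, against a median of 52.7% over all 32851 windows). Both strands were searched for 4 motifs: the CArG box bound by serum response factor (SRF), GGAATG bound by the TEAD partners of YAP, the GC box GGGCGG and CCAAT. The CArG box was found in Vcl alone, and 1.63% of all windows hold one. GGAATG was found in 5 of the 9 genes (Actn4, Ahnak, Flna, Flnc and Vcl), against 14.7% of all windows, GGGCGG in 8 against 35.7%, and CCAAT in 4 against 37.4%. The windows of Vcl, Flna and Flnc are printed 5′ to 3′ on the strand of the gene, since Vcl holds both the CArG box and GGAATG, and the filamins hold GGAATG and include the gene that fell furthest. Capitals mark the CArG box (bases 24 to 33 of the Vcl window) and GGAATG, which reads CATTCC where it lies on the other strand, and no capitalised motif overlaps another motif searched. The Flna window surrounds a RefSeq start within the deposited Flna span.
Vcl promoter (chr14:20929148-20929447, plus strand): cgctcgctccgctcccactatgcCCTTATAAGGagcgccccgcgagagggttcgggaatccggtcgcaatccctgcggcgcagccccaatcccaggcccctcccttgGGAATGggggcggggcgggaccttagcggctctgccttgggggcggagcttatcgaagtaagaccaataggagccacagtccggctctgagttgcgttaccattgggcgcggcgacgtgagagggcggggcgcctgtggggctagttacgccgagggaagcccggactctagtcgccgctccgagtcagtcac
Flna promoter (chrX:74246485-74246784, minus strand): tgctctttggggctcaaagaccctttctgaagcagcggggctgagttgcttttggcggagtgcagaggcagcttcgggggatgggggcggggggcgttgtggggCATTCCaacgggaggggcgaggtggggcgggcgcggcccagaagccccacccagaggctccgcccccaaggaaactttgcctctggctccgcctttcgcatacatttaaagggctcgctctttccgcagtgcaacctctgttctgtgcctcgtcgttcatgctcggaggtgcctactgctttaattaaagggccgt
Flnc promoter (chr6:29433006-29433305, plus strand): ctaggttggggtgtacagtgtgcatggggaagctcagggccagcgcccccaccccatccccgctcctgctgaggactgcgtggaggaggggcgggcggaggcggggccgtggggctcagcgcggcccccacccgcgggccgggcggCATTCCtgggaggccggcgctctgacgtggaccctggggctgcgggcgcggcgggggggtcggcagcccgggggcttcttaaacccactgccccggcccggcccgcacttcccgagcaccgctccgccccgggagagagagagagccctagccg
A match describes the letters in a window and is not a binding site, and its part in these differences was not tested.

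Genes of the same structures outside the 9 give the setting. Over 145 such genes in 8 lists, 128 were tested, of which 25 fell and 1 rose, with a median log2 difference of -0.13 beside 0.02 for all tested genes. Over all tested genes 8.3% were called lower and 5.91% higher, and among the 2003 with the longest transcripts 20.2% were called lower. These shares stand beside each list below. The lists were drawn up with earlier results of these data known, so the counts only describe them. Calls in these lists, 26 from all libraries, numbered 26, 18 and 0 without wild-type replicate 1, 2 or 3. They numbered 1, 3 and 43 without knockout replicate 1, 2 or 3. With the length and GC trend removed they numbered 5, beside 2.88% of all genes called in either direction.

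Close relatives of the 9 genes fell in 3 of 8 tested cases and rose in 0. Ahnak2 had 6.19, 5.31 and 8.62 FPKM in the knockout libraries, against 10.2, 12.7 and 13.3 FPKM in wild type (log2 -0.78, SE 0.19, limma adjusted p = 0.0275). The LIM protein gene Limd1 was among those that fell, by 0.62 on the log2 scale. Tln2 (talin 2) was low at 3.27 ± 0.786 FPKM in the knockout and 4.86 ± 0.376 FPKM in wild type and did not pass (log2 -0.47, limma adjusted p = 0.0823). The sign of the Tln2 difference changed with the length and GC trend removed (log2 0.35, limma adjusted p = 0.127). Myh10 and Myh14, the other non-muscle myosin II heavy chains, were below the filter. With the trend removed, 0 of these 8 passed.

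Of 28 focal adhesion adaptors and binding partners tested, 9 fell and 0 rose, with a median log2 difference of -0.39. Itga5, the fibronectin receptor subunit, had 36.0, 33.3 and 39.9 FPKM in the knockout libraries, against 130, 61.0 and 145 FPKM in wild type (log2 -1.50, limma adjusted p = 0.0163). Tns1, encoding tensin 1, which links integrins to actin, fell by 1.23 on the log2 scale, the scaffold gene Bcar1 (p130Cas) by 0.81 and Git1 by 0.77. The integrin beta chain Itgb1, by contrast, had 205 ± 38.0 FPKM in the knockout and 206 ± 13.3 FPKM in wild type (log2 -0.019, limma adjusted p = 0.952). It was named after its values had been seen. With the trend removed, 0 of the 28 passed, and the median was -0.15.

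Of 25 other actin bundling and filament-binding genes tested, 4 fell and 0 rose, with a median log2 difference of -0.03. They were Synpo (synaptopodin, -1.04), Fscn1 (fascin, which bundles filaments in protrusions, -0.75), the spectrin gene Sptan1 (-0.74) and Afap1 (-0.60). Fscn1 had 110.0, 124 and 119 FPKM in the knockout libraries, against 180, 190 and 227 FPKM in wild type, and it still fell with the trend removed (-0.48, limma adjusted p = 0.0478).

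Of 19 myosin light chain and contractility genes tested, 4 fell and 0 rose: Cdc42bpb (the kinase MRCK beta, -1.01), Diaph1 (the formin mDia1, -0.83), Limk1 (-0.63) and Arhgef2 (-0.49). The median of this list was 0.21. Myl6, a light chain that binds the Myh9 heavy chain, had 167, 174 and 122 FPKM in the knockout libraries, against 86.9, 95.2 and 121 FPKM in wild type, opposite in direction to Myh9. It did not pass as deposited (log2 0.60, limma adjusted p = 0.0621) but was the 1 gene of the list that did with the trend removed (0.73, limma adjusted p = 0.0497). It was named after its values had been seen.

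Actin itself and its turnover genes, mostly short transcripts (median 2134 bases), held 0 calls among 22 tested. Actg1 had 740 ± 48.7 FPKM in the knockout and 1053 ± 49.8 FPKM in wild type (log2 -0.51, limma adjusted p = 0.0882), and it passed with the trend removed (-0.60, limma adjusted p = 0.0404). Capza2, Arpc3 and Arpc1b, a capping protein and subunits of the Arp2/3 complex, had log2 differences of 0.45, 0.47 and 0.44 without passing. Arpc1b passed with the trend removed (0.54, limma adjusted p = 0.0482).

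SRF and its actin-sensing cofactors control many genes of this class. Of 13 tested SRF and MRTF factors and targets, 3 fell and 0 rose. Srf had 28.5, 33.9 and 33.9 FPKM in the knockout libraries, against 53.1, 44.2 and 62.7 FPKM in wild type (log2 -0.71, SE 0.17, limma adjusted p = 0.0259). Mkl1, encoding the cofactor MRTF-A, fell to 3.88 ± 0.736 FPKM in the knockout, against 7.68 ± 1.12 FPKM in wild type (log2 -0.83), and the smooth muscle gene Smtn fell by 0.67. Mkl2, encoding MRTF-B, did not pass (-0.46). With the trend removed, 0 of the 13 passed. YAP and TAZ genes were mixed among 12 tested: Nuak2 (-0.93) and Tead3 (-0.57) fell, Lats2 did not pass (-0.53), and Ankrd1, a YAP target, rose by 0.98 (74.2 ± 7.95 FPKM in the knockout, 38.4 ± 12.3 FPKM in wild type). With the trend removed Nuak2 still fell (-0.77, limma adjusted p = 0.0477), whereas Ankrd1 (0.79, limma adjusted p = 0.0871) and Tead3 (-0.23, limma adjusted p = 0.260) no longer passed.

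**Figure D5:**
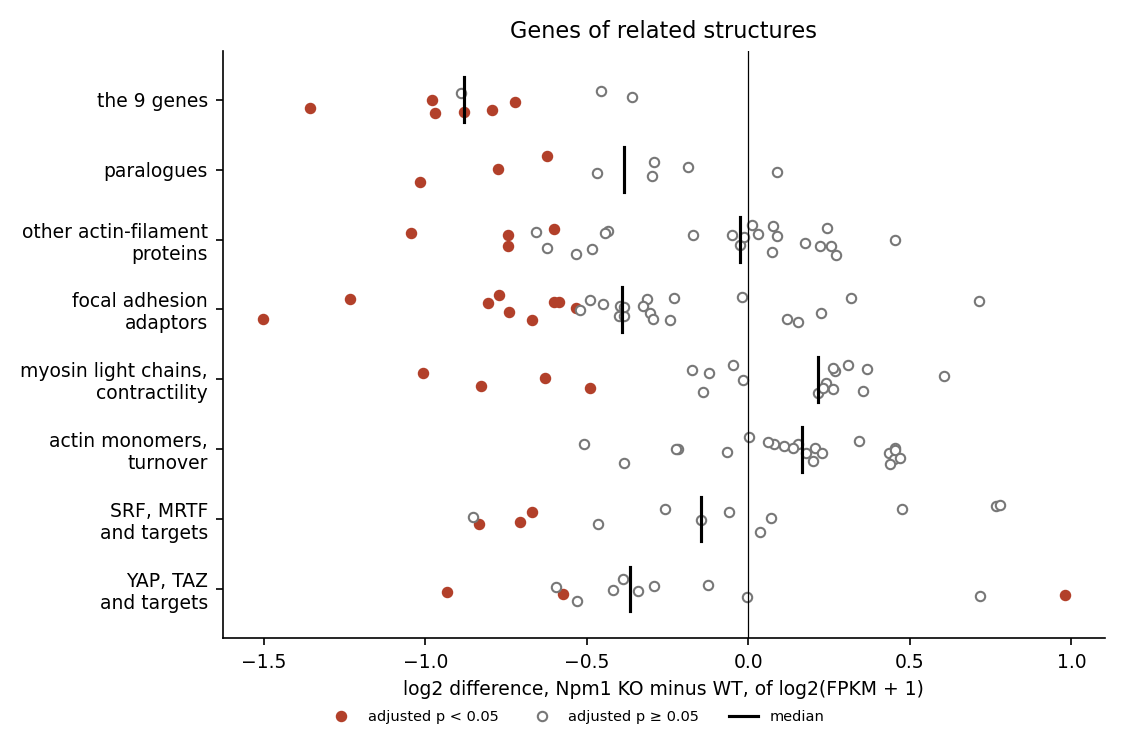
Log2 difference, Npm1 knockout minus wild type, of each tested gene in 7 lists of related structures below the 9 genes themselves (top row); filled red points have an adjusted p under 0.05 and black bars are medians. Calls lie left of 0 in every row that has any, except for Ankrd1 among YAP and TAZ genes, and the actin monomer and turnover row has 0 calls.

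Across the 6 libraries, the 5 genes outside the set whose log2 level followed the mean profile of the 9 most closely, among 10025 protein-coding genes, were Ptpn11, Ndst1, Kirrel, Kdm5c and Arhgef17, with Pearson r from 0.997 for Arhgef17 to 0.999 for Ptpn11. All 5 have transcripts of 6449 bases or more. As many as 612 genes reached an r of 0.95, and these share their libraries and group labels with the 9.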

How the data were processed

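The deposited values are FPKM, with 1 column per library. Per the submitters' processing notes, the genome build was GRCm38 (mm10) and the tools, with no roles given, were HISAT2 2.0.5, CASAVA 1.8, DESeq2 1.20.0 and featureCounts 1.5.0-p3. No source used here gives the authors' strand setting or their handling of multi-mapping reads, so an antisense partner cannot be told apart from a gene. The gene length in bases is also the authors', per the file headers.

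FPKM multiplied by gene length, and divided by the value of 1 fragment found for each library from its low values, gave whole fragments for 100% of values above 0 (tolerance 0.001). The library size implied by that step was 0.960 to 1.04 times the sum of these fragments. log2(FPKM + 1) was tested with limma 3.58.1 (R 4.3.3; group only, mean trend, two-sided) over the 11287 genes averaging 1 FPKM or more, with Benjamini-Hochberg adjustment. Fold changes on this scale understate low genes. The alternative trend removal fitted, per library, a smooth function of log2 length and GC content of the longest GENCODE vM21 transcript (mgcv 1.9.3). The members, lists and alternatives were chosen with earlier results of these data known. Named genes are the 9, Npm1, up to 4 per list with the smallest p, and the 5 most similar profiles; other genes were named after their values were seen. One result under this rule is not reported here. A run of the procedure on simulated data used no trend or the same trend in all knockout libraries. In the deposited data the deviation of long transcripts differed between them, and no result here rests on that run. Exact tests used scipy 1.17.1.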

Additional observations from a re-analysis of the deposited data

How the results depend on the processing

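Over 25 alternatives all 9 differences stayed negative, except that of Actn4, at 0.0016 with the length and GC trend removed and without knockout replicate 1. In part this was fixed in advance. Changes to the filter, the variance trend, robust moderation and the replicate block leave each estimate as it was. Where groups do not overlap, leaving out 1 library from the deposited values cannot reverse the sign. The number of the 9 genes called lower, 6 from the deposited values, was 0 with no filter on low values, 2 with the trend removed and 0 with trend removal and a replicate block. Leaving out single libraries gave 0 to 8, and 0 to 1 with the trend removed as well. Related-list genes called numbered 26, and 0 with no filter, 74 with array weights, 15 with the replicate block, 5 with the trend removed, 0 with trend removal and the block, 0 to 43 without single libraries and 0 to 11 without them and the trend. Calls over all genes numbered 1604, and 0 with no filter, 961 as TPM, 5454 with array weights, 822 with the block, 325 with the trend removed, 9 with trend removal and the block, 7 to 2805 without single libraries and 5 to 541 without them and the trend (23 without wild-type replicate 1, 308 without knockout replicate 3). With no filter, limma gave 4543 of 24310 genes an unadjusted p under 0.05, all 9 genes among them, and limma-voom on recovered fragments, with its filter, called 5 of the 9. Array weights called all 9.

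Rescaling to TPM moved the median of all genes by -0.10 and gave 26.1% of calls as higher, against 41.6% from the deposited values, with 5 of the 9 genes called lower. Vcl was lost as TPM, with quantile normalization, without a variance trend, with the block (limma adjusted p = 0.0736) and in limma-voom. Actn1 passed with quantile normalization and Ahnak at a mean of at least 5 FPKM. Limma adjusted p over all alternatives ran from 8.8e-05 to 0.165 for Flnc and from 0.00017 to 0.170 for Zyx. Same-numbered libraries did not deviate together (correlations of deviations -0.19, 0.27 and -0.37 for numbers 1, 2 and 3), and the numbers were not taken as pairs. The cause of these changes was not tested. Counting error limits none of the 9 genes.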
